A study of Homo sapiens with 4 samples.

Results

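The genes of the DNAJA, DNAJB and DNAJC families, which encode the J-domain proteins or Hsp40 co-chaperones, were examined in poly(A) RNA of HEK293T cells, a human embryonic kidney line. Members were the protein-coding genes whose symbol begins with DNAJA, DNAJB or DNAJC followed by a number, and 45 of the 62700 genes in the count tables met this rule, with 4 genes of class A, 12 of class B and 29 of class C. Pseudogenes and long noncoding RNAs with such symbols were not members. The T4A cells carried a plasmid for RPB1, the subunit of RNA polymerase II that bears the C-terminal domain, in which the threonine at position 4 of the heptad repeats of that domain (CTD) was replaced by alanine, and the WT cells carried a plasmid for RPB1 whose CTD was wild type. Both constructs were transient, tagged with EYFP and resistant to α-amanitin, and cells of both groups received α-amanitin at 2.5 µg/ml from 1 day after transfection for 48 hours to remove the endogenous RPB1. Each group had 2 libraries. The question set to these cells was how transcripts change when Thr4 of the CTD cannot be phosphorylated.

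J proteins bind unfolded clients and, through the J domain that gives them their name, stimulate the ATPase of Hsp70, so that the Hsp70 closes on the client. Nucleotide exchange factors such as the BAG proteins, HSPBP1, SIL1 and the GrpE proteins then release it. Class A members share the domain order of bacterial DnaJ, class B members lack its zinc-binding region, and class C members have in common little more than the J domain, so they range from ER disulfide chemistry to clathrin uncoating and splicing. A few members are induced by heat through HSF1, and a few of the ER lumen by the unfolded protein response (UPR).

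The T4A libraries totalled 23465029 and 19257217 counts, and the WT libraries 33063535 and 24695291, and the J-protein genes together took 0.122% and 0.119% of them in T4A against 0.129% and 0.127% in WT. Of 8 genes listed as markers of HEK293T cells, 7 were above 1 CPM (counts per 1000000, with library sizes scaled by TMM) in all 4 libraries, and LHX1 was at or near 0. Of 8 markers listed for other cell types, PECAM1 was not found by symbol and was not read. Among the others, only COL1A1 was above 1 CPM in all 4 libraries. The summed level of those read was 28.1 and 31.1 CPM in T4A and 31.9 and 34.4 CPM in WT. ALB, a hepatocyte marker, had 10 and 36 counts in T4A, against 20 and 28 in WT. CD3E, PTPRC, VWF, KRT5 and COL1A2 had 0 to 6 counts in any library. POLR2A, the gene of RPB1, in which construct and endogenous transcripts are counted together, was 1.66-fold higher in T4A (log2 fold change 0.73 ± 0.08, SE, edgeR adjusted p = 7.23e-07). The part of construct level in the results below was not tested.

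HSF1 is known to bind heat shock elements, which are built from GAA units in alternating orientation. Matches to them in promoters of the heat-inducible members are shown because these members were set against the rest. The search was for a facing pair of units, GAANNTTC or TTCNNGAA, on both strands and with overlap allowed, in the 250 bases before and 50 bases after each start of RefSeq (GRCh38.p14). Positions count back from the start, with −1 for the base just before it. In the stretches printed here, which lie upstream of a start in the table and are written 5′ to 3′ on the strand of the gene, capitals mark the pairs. That of DNAJB1 is chr19:14518398-14518597 (minus strand, bases −200 to −1), that of DNAJA4 is chr15:78264442-78264541 (plus strand, −120 to −21), that of DNAJB4 is chr1:78004785-78004904 (plus strand, −154 to −35) and that of DNAJA1 is chr9:33025064-33025093 (plus strand, −209 to −180).
DNAJB1: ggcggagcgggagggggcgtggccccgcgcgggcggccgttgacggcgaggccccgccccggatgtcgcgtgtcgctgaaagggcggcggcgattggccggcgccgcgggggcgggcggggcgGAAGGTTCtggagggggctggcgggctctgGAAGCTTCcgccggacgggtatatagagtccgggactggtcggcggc
DNAJA4: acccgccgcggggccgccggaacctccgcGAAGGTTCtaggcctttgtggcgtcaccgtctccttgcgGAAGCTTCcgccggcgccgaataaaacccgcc
DNAJB4: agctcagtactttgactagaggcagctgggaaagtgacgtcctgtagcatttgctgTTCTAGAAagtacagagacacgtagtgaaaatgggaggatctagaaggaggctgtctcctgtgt
DNAJA1: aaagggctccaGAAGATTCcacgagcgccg
DNAJB1 and DNAJA4 hold the same facing pairs in the same order. GAAGGTTC begins at −77 in DNAJB1 and at −91 in DNAJA4, and GAAGCTTC begins at −47 in DNAJB1 and at −52 in DNAJA4. Around the second of these the letters are identical over 15 bases, ggaagcttccgccgg. DNAJB4 has TTCTAGAA at −98 and DNAJA1 has GAAGATTC at −198. DNAJB1, DNAJA4 and DNAJB4 have other starts in the table, 3, 3 and 2 in all, and the stretch belongs to 1 of them.

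Promoters were given for 41 of the 45 members. A facing pair was present in 8 of these 41 genes (19.5%), against 16.2% of the 27305 genes in the table, and in 13.5% of its 35116 promoters. The 8 genes were DNAJA1, DNAJA4, DNAJB1, DNAJB4, DNAJB6, DNAJB7, DNAJC6 and DNAJC15. Alternating units in a row of 3, each spaced by 2 bases, were found in DNAJA1, downstream of its start, and in DNAJB6, upstream of it. These were 2 of the 41 genes (4.88%), against 0.608% of all genes in the table and 0.490% of its promoters. The ER stress response element, CCAAT and CCACG with 9 bases between them, was found in 0 of the 41 genes. It was found in 0.0916% of all genes in the table and in 0.0769% of its promoters. These are matches of letters and not measured binding.

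Of the 45 members, 41 passed the filter on low counts and were tested. In T4A cells 5 members were higher (12.2% of 41) and 6 were lower (14.6%) at an adjusted p under 0.05, where 10.7% of the 18139 genes tested were higher and 13.0% were lower. In either direction 11 of 41 were called (26.8%), against a background of 23.6%, or 29.0% of the 13598 protein-coding genes tested. The members' median log2 fold change was −0.08, and that of all genes tested was −0.01. The summed level of the family was 1264 and 1218 CPM in T4A and 1271 and 1228 CPM in WT, so that the groups overlapped in the sum. These levels are shares of a library, so they show neither the number of cells nor the amount of RNA per cell. The libraries of the groups did not overlap for 26 of the 41 members (63.4%), against 59.0% of all genes tested and 63.3% of protein-coding genes. The family as a whole was therefore called about as often as genes in general, and what follows concerns which members moved. Scaling shifted the balance of the calls, with 8 higher and 5 lower under upper quartile scaling and 4 higher and 9 lower under library totals alone.

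**Figure D1:**
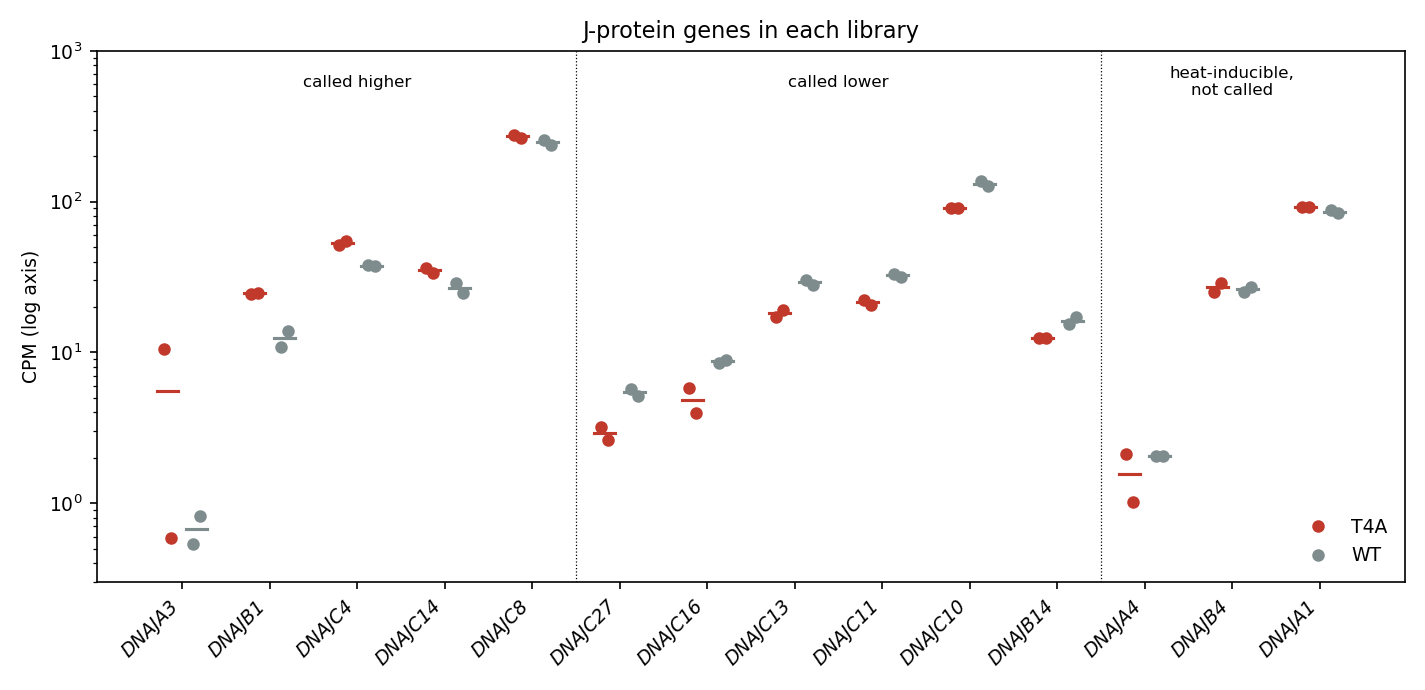
CPM (log axis) of the 11 called J-protein genes and of the 3 heat-inducible members that were not called, in T4A (red, left) and WT (grey, right). Points are libraries, and bars mark the means of the 2 libraries. DNAJB1 stands at 24.4 and 24.8 CPM in T4A, above both WT libraries, and DNAJA3 is high only in T4A replicate 1.

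DNAJB1, the classical heat-inducible Hsp40 of the cytosol and nucleus (ENSG00000132002.9, chromosome 19, 14514769 to 14560391, GRCh38 as for all coordinates here), had 24.4 and 24.8 CPM in T4A, against 10.9 and 13.9 CPM in WT. Both T4A libraries lay above both WT libraries. Its mean was 24.6 ± 0.325 CPM in T4A and 12.4 ± 2.11 CPM in WT (SD, n = 2 each), a log2 fold change of 0.99 ± 0.13 (SE, edgeR adjusted p = 7.74e-06). The WT libraries differed more from each other than the T4A libraries did, and the value was 0.83 when WT replicate 1 was left out and 1.17 when WT replicate 2 was. The call was made under all 15 alternative settings. The exons of DNAJB1 share 6.41% of their bases with TECR, an enoyl-CoA reductase gene on the opposite strand, and the reads were counted without strand. TECR had a far higher level than DNAJB1, with 325 and 301 CPM in T4A, against 252 and 244 CPM in WT. It was thus higher in T4A as well (log2 fold change 0.33 ± 0.05, edgeR adjusted p = 1.98e-05). The part of TECR in the value of DNAJB1 was not tested.

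The other heat-inducible members were not called. DNAJA1, a class A co-chaperone of the cytosol and the member of that class with the highest level per length, had 91.96 and 92.1 CPM in T4A and 87.8 and 83.5 CPM in WT. The T4A libraries lay above the WT libraries, but the log2 fold change was 0.10 ± 0.06 (edgeR adjusted p = 0.278), and it passed under upper quartile scaling only (0.19, adjusted p = 0.0393). DNAJB4, a cytosolic class B member, had 25.1 and 28.8 CPM in T4A and 25.2 and 27.3 CPM in WT, and the groups overlapped (0.04 ± 0.10, edgeR adjusted p = 0.859). DNAJA4, whose promoter pairs match those of DNAJB1, was low, with 2.12 and 1.01 CPM in T4A and 2.06 and 2.07 CPM in WT (−0.38 ± 0.42, edgeR adjusted p = 0.582). Of the 4 heat-inducible members 1 was therefore higher (25%) and 0 were lower, with a median log2 fold change of 0.07. Of the 33 tested members on neither inducible list 4 were higher (12.1%) and 5 lower (15.2%), with a median of −0.09. The shares over all genes tested were 10.7% higher and 13.0% lower. Among the 8 members with a facing pair in a promoter, DNAJB1 was called (12.5%, against 23.6% of all genes tested). The other 7 were not, at log2 fold changes from −0.38 to 0.10.

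Because these genes are read in the same library, ratios of their raw counts do not depend on the scaling between libraries. DNAJB1 had 0.265 and 0.27 counts per count of DNAJA1 in T4A, against 0.124 and 0.166 in WT. Per count of DNAJB4 it had 0.97 and 0.863 in T4A, against 0.434 and 0.509 in WT. Both ratios were thus higher in both T4A libraries, by 1.84-fold and 1.95-fold between the means. An exact permutation test, two-sided, of 2 against 2 libraries cannot give a p below 0.333, and the first ratio gave that value.

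DNAJA3, a class A member of mitochondria also known as Tid1 (ENSG00000103423.14, chromosome 16, 4425868 to 4456775), had 238 and 11 counts in T4A, against 18 and 21 counts in WT. These are 10.5 and 0.585 CPM in T4A and 0.537 and 0.82 CPM in WT. Only T4A replicate 1 was high, and the other T4A library lay within the WT range. The fit gave a log2 fold change of 3.06 ± 0.72 (edgeR adjusted p = 0.00338), but −0.20 without T4A replicate 1 (adjusted p = 0.91), and DESeq2 and limma-voom did not call it (adjusted p = 0.157 and 0.0991). The genes around it had few counts in every library, and whether fragments of this stretch were placed elsewhere in the build was not tested, so these counts need not give the genes' expression. HMOX2, a heme oxygenase gene that begins at 4474736, had 7 and 3 counts in T4A, against 4 and 4 in WT, NMRAL1 had 9 and 3, against 14 and 1, and CORO7 had 0 and 0, against 1 and 0. CDIP1, which begins at 4510669 beyond them, had 91 and 87 counts in T4A, against 141 and 120 in WT. Without DNAJA3, 4 members were higher.

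Among the other mitochondrial members, DNAJC4 and DNAJC11 moved in opposite directions. DNAJC4 (ENSG00000110011.14, chromosome 11, 64230432 to 64234281) had 51.2 and 54.7 CPM in T4A, against 37.7 and 37.4 CPM in WT, a log2 fold change of 0.49 ± 0.08 (edgeR adjusted p = 0.000149). It was higher in both T4A libraries and was still called whichever library was left out. It shares 10.6% of its exonic bases with NUDT22, which was not called (0.21 ± 0.16), and its neighbours VEGFB (0.50 ± 0.08) and TRPT1 (1.10 ± 0.21) were higher in T4A. DNAJC11, a protein associated with the cristae-organizing MICOS complex (ENSG00000007923.17, chromosome 1, 6634170 to 6701816), had 22.3 and 20.6 CPM in T4A, against 33.1 and 31.6 CPM in WT. It fell by 0.59 ± 0.10 on the log2 scale (edgeR adjusted p = 0.000153), with no overlap between the groups. It shares 11.6% of its exonic bases with THAP3 on the opposite strand, which was not called (0.63, edgeR adjusted p = 0.0876). There were 2.29 and 2.65 counts of DNAJC4 per count of DNAJC11 in T4A, against 1.14 and 1.18 in WT. This ratio sets a gene called higher against a gene called lower, so it restates those calls. DNAJC19, a subunit of the protein import motor (0.20 ± 0.08), DNAJC30 (0.24 ± 0.16) and DNAJC15 (−0.37 ± 0.80) were not called. Of 6 tested mitochondrial members 2 were therefore higher (33.3%) and 1 lower (16.7%), with a median log2 fold change of 0.22, or 1 higher without DNAJA3. The shares over all genes tested were 10.7% higher and 13.0% lower.

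The ER held 12 members, all tested, of which 1 was higher (8.33%) and 3 were lower (25%), with a median log2 fold change of −0.20. Of all genes tested 10.7% were higher and 13.0% lower. The median exonic length of these members was 5579 bases, and 26.2% of protein-coding genes of at least 5000 bases were lower. The summed level of these genes was 291 and 285 CPM in T4A, against 333 and 324 CPM in WT. For the 8 ER members outside the UPR-inducible list, which holds DNAJC10, the sum was 111 and 108 CPM in T4A and 112.3 and 112.0 CPM in WT. DNAJC10, also called ERdj5, a disulfide reductase of the ER lumen (ENSG00000077232.19, chromosome 2, 182716257 to 182794464), had 91.2 and 90.9 CPM in T4A, against 136 and 127 CPM in WT. It fell by 0.53 ± 0.06 on the log2 scale (edgeR adjusted p = 1.35e-06), which made it the member with the smallest adjusted p, and with 1 library left out it fell by 0.47 to 0.59. DNAJC16, also called ERdj8, a membrane protein of the ER, had 5.77 and 3.93 CPM in T4A, against 8.47 and 8.94 CPM in WT (−0.83 ± 0.21, edgeR adjusted p = 0.00654), and fell by 0.59 without T4A replicate 2 and by 1.15 without T4A replicate 1. DNAJB14, an ER membrane protein that faces the cytosol, had 12.4 and 12.4 CPM in T4A, against 15.3 and 17.1 CPM in WT (−0.38 ± 0.13, edgeR adjusted p = 0.0444). This call was near the threshold and was lost whichever library was left out and under 7 other settings. DNAJC14, which was higher, had 36.3 and 33.5 CPM in T4A, against 29.0 and 24.6 CPM in WT (0.38 ± 0.10, edgeR adjusted p = 0.00906). When WT replicate 2 was left out it was no longer called (0.26, edgeR adjusted p = 0.199). Its exons share 23.2% of their bases with the protein-coding gene ENSG00000257390 on the same strand, which was not tested, 22.0% with ORMDL2 and 12.9% with TMEM198B, both on the opposite strand and not called (0.14 and 0.06).

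The UPR-inducible members did not move together. DNAJC10, described above, is on this list and was lower, and the remaining 3 did not pass. DNAJB9, or ERdj4, which binds the sensor IRE1, had 3.83 and 2.34 CPM in T4A and 2.24 and 2.26 CPM in WT (0.46 ± 0.33, edgeR adjusted p = 0.37). The difference lay mostly in T4A replicate 1, without which the log2 fold change was 0.05. DNAJB11, or ERdj3, a soluble co-chaperone of the ER Hsp70 BiP, had 68.3 and 68.7 CPM in T4A and 63.1 and 65.0 CPM in WT (0.10 ± 0.07, edgeR adjusted p = 0.375). DNAJC3, or p58IPK, which binds unfolded proteins in the ER lumen, had 16.6 and 14.8 CPM in T4A and 18.9 and 17.4 CPM in WT (−0.21 ± 0.12, edgeR adjusted p = 0.254). All 4 were non-overlapping between the groups, 2 in each direction, where 59.0% of all genes tested did not overlap. There were 1.33 and 1.32 counts of DNAJC10 per count of DNAJB11 in T4A, against 2.16 and 1.95 in WT.

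**Figure D2:**
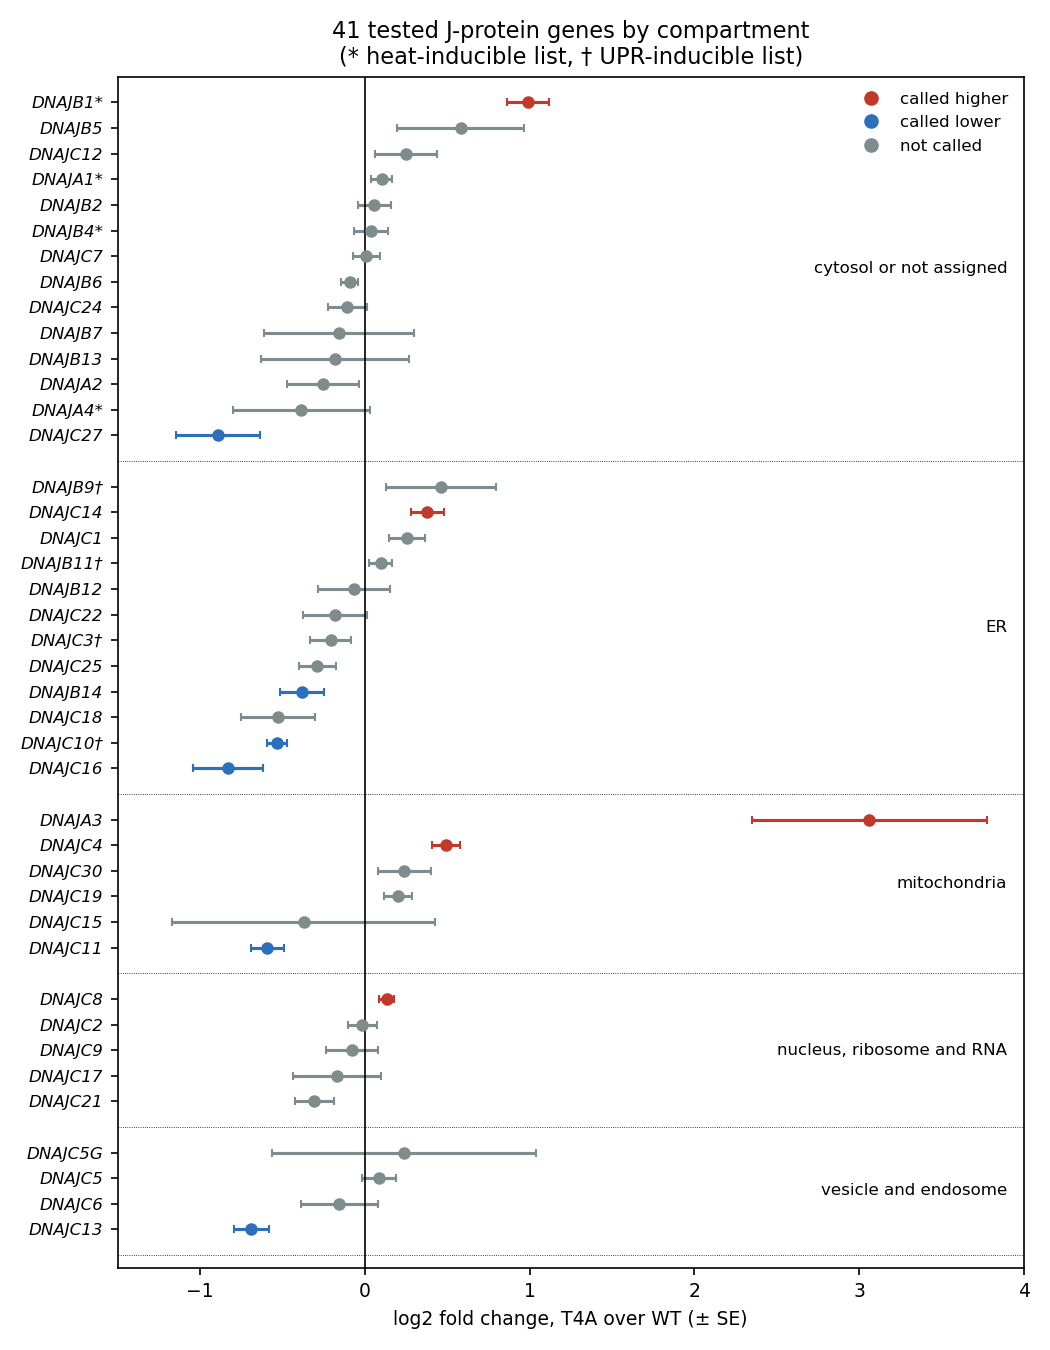
Log2 fold change (T4A over WT, with bars for ± SE) of the 41 tested J-protein genes, ordered by value within each compartment, in red where called higher, blue where called lower and grey otherwise. Of the 12 ER members 3 are called lower (25%) and 1 higher (8.33%), against 13.0% and 10.7% of all genes tested. DNAJA3, at 3.06, rests on 1 library.

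Members of the vesicle and endosome group included 1 lower gene among 4 tested (25%, against 13.0% of all genes tested). DNAJC13, or RME-8, which acts on endosomes with the retromer and WASH machinery (ENSG00000138246.17, chromosome 3, 132417502 to 132539032), had 17.2 and 19.1 CPM in T4A, against 30.4 and 28.0 CPM in WT. It fell by 0.69 ± 0.11 on the log2 scale (edgeR adjusted p = 6.47e-05), with no overlap, and by 0.61 to 0.77 with 1 library left out. DNAJC5, the cysteine string protein of secretory vesicles (0.09 ± 0.10), and DNAJC6, the clathrin-uncoating auxilin (−0.15 ± 0.23), were not called. There were 0.685 and 0.82 counts of DNAJC13 per count of DNAJC5 in T4A, against 1.36 and 1.2 in WT. DNAJC27, in which a Rab-like GTPase domain precedes the J domain, was in no compartment list and had 3.22 and 2.6 CPM in T4A, against 5.72 and 5.11 CPM in WT (−0.89 ± 0.25, edgeR adjusted p = 0.0136). It had the largest fall of the called members, and its call was lost without WT replicate 1 (−0.80, adjusted p = 0.128).

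Of the 5 members that act at the ribosome, on RNA or on histones, 1 was higher and 0 were lower (20%, background 23.6%). The groups did not overlap for 3 of them (60%, background 59.0%). DNAJC8, a protein found with the spliceosome (ENSG00000126698.11, chromosome 1, 28200278 to 28233029), had the highest level per length in the family, 93.5 CPM per kb of exon in T4A and 85.3 in WT, and gave 21.8% and 21.7% of the family's counts in T4A against 20.1% and 19.3% in WT. It had 276 and 265 CPM in T4A, against 256 and 237 CPM in WT (0.13 ± 0.05, edgeR adjusted p = 0.0494). The groups did not overlap, but the call was at the threshold and was lost under 7 of the 15 alternatives, among them without T4A replicate 1, without WT replicate 2 and under library totals. DNAJC21, which takes part in maturation of the large ribosomal subunit, had 17.6 and 15.2 CPM in T4A and 20.7 and 19.9 CPM in WT (−0.31 ± 0.12, edgeR adjusted p = 0.0701). It was called under library totals (−0.39) and without T4A replicate 1 (−0.43). DNAJC2, which docks Hsp70 on the ribosome, had 51.0 and 43.6 CPM in T4A and 48.4 and 47.3 CPM in WT, and the groups overlapped (−0.01 ± 0.09, edgeR adjusted p = 0.937). DNAJC9, a histone chaperone, had 10.05 and 11.7 CPM in T4A and 12.3 and 10.7 CPM in WT (−0.08 ± 0.16, edgeR adjusted p = 0.786), and 56.5% of its exonic bases are shared with FAM149B1 on the opposite strand. DNAJC17, a nuclear protein linked to splicing, had 3.61 and 3.19 CPM in T4A and 3.73 and 3.94 CPM in WT (−0.17 ± 0.27, edgeR adjusted p = 0.726).

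By class, 1 of 4 tested class A members was higher (25%) and 0 were lower, and that gene was DNAJA3. In class B 1 of 11 was higher (9.09%) and 1 lower (9.09%), and in class C 3 of 26 were higher (11.5%) and 5 lower (19.2%). Over all genes tested 10.7% were higher and 13.0% lower. The median log2 fold changes were −0.08 in class A, 0.04 in class B and −0.13 in class C. The summed level of class C was 809 and 784 CPM in T4A and 841 and 799.7 CPM in WT, and the groups overlapped. That of class B was 345 and 335.3 CPM in T4A and 334.5 and 335.2 CPM in WT. After DNAJC8, the highest levels per length were those of DNAJA1, at 34.5 CPM per kb in T4A and 32.1 in WT, and of DNAJC4, at 18.8 in T4A and 13.4 in WT. DNAJB6, which keeps aggregation-prone proteins soluble, had 166 and 157 CPM in T4A and 174 and 169.7 CPM in WT and was not called (−0.09 ± 0.05, edgeR adjusted p = 0.228).

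Of the 30 tested members that were not called, 5 had an unadjusted p under 0.05. They were DNAJC19, DNAJC1 (0.26 ± 0.11) and, with negative values, DNAJC18 (−0.53 ± 0.22), DNAJC21 and DNAJC25 (−0.29 ± 0.11), with edgeR adjusted p from 0.0701 to 0.101. DNAJC7, a co-chaperone that binds both Hsp70 and Hsp90, was among the closest to no difference, at 41.9 and 42.5 CPM in T4A and 42.3 and 41.5 CPM in WT (0.01 ± 0.08). DNAJB5, with 1.94 and 2.82 CPM in T4A and 1.67 and 1.48 CPM in WT, had a log2 fold change of 0.58 but an SE of 0.38. The 4 members outside the test were DNAJB8, DNAJC5B, DNAJC28 and the read-through gene DNAJC25-GNG10. DNAJB8, known from testis, had 0 and 0 counts in T4A, against 9 and 6 in WT, and a count of 0 allows up to 0.132 and 0.159 CPM in the T4A libraries (3 counts, counting error only). DNAJC5B had 4 and 0 counts in T4A, against 0 and 0 in WT, and DNAJC28 and DNAJC25-GNG10 had 0 in all 4 libraries.

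Sequence length ran through these values. Across the 41 members the log2 fold change and the exonic length (the union of annotated exons) had a Spearman rho of −0.45, and over the 13598 protein-coding genes tested rho was −0.43. These are descriptions across genes, which share the same 4 libraries. Of 16 members with under 5000 exonic bases, 3 were higher (18.8%) and 0 lower, with a median log2 fold change of 0.17, where 20.5% of the protein-coding genes under that length were higher and 4.68% lower, with a median of 0.14. Of 25 longer members 2 were higher (8%) and 6 lower (24%), with a median of −0.17, where 5.97% of the longer protein-coding genes were higher and 26.2% lower, with a median of −0.18. The members' shares were thus near those of genes of their length. By this measure DNAJB1 was an exception, with 8188 exonic bases and a higher level in T4A. That length joins the exons of all its annotated transcripts. A transcript from the start whose promoter is printed above would lie between 14514769 and 14518398, and so have under 5000 bases. Which transcripts gave the counts was not tested, and the value of DNAJB1 with the trend removed rests on the joined length. After removal of the trend with length, the log2 fold change of DNAJB1 was 1.18 and that of DNAJC4 was 0.36. In the same fit DNAJC13 had −0.47, DNAJC11 −0.33 and DNAJC10, the longest member at 25053 exonic bases, −0.19, and all 5 were still called. DNAJC8 and DNAJB14 were no longer called, at 0.00 and −0.11. DNAJB11 (0.32), DNAJC7 (0.28), DNAJB6 (0.20) and DNAJC25 (−0.44) were called with the trend removed although not otherwise. DNAJB6 and DNAJC25 were also called under library totals, where both were lower, so the direction of DNAJB6 depended on the setting.

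**Figure D3:**
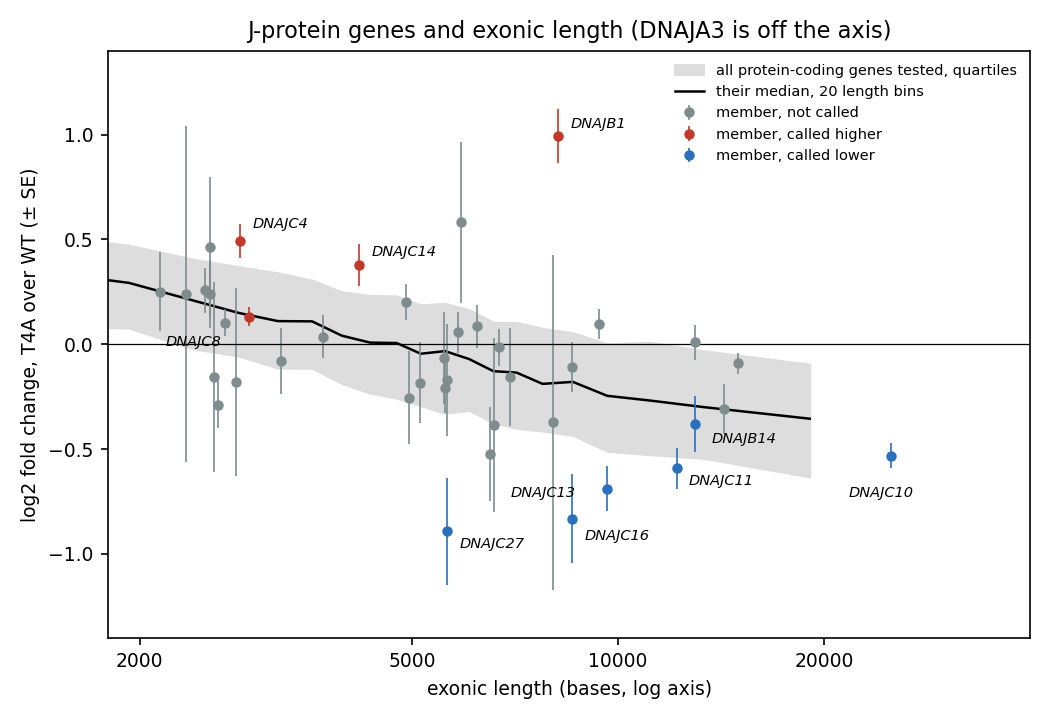
Log2 fold change (T4A over WT, with bars for ± SE) against exonic length (log axis) for 40 of the 41 tested members. The grey band and black line are the quartiles and median of all 13598 protein-coding genes tested in 20 bins of length. DNAJB1 lies far above the band, DNAJC27 and DNAJC16 below it. Other members also lie outside it on either side, among them DNAJC13, DNAJC11, DNAJC18 and DNAJC25 below and DNAJC4 and DNAJC14 above.

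The Hsp70 machinery with which J proteins work was read from a list of 32 partner genes. Of these 29 were tested, 6 were higher (20.7%) and 4 lower (13.8%), with a median log2 fold change of 0.01. Of all genes tested 10.7% were higher and 13.0% lower, and of protein-coding genes 12.6% and 16.4%. The share of lower partners was near the background. Under upper quartile scaling 8 were higher and 1 lower, and under library totals 5 were higher and 8 lower. HSPA6, a strictly inducible Hsp70, had 28.4 and 23.2 CPM in T4A, against 0.656 and 0.937 CPM in WT (5.04 ± 0.21, edgeR adjusted p = 4.62e-12). HSPA8, the constitutive Hsc70 of the cytosol, had 117 and 128 CPM in T4A, against 78.6 and 85.3 CPM in WT (0.58 ± 0.06, edgeR adjusted p = 1.60e-06). BAG3, an HSF1-induced exchange factor, had 29.4 and 27.4 CPM in T4A, against 19.4 and 19.1 CPM in WT (0.56 ± 0.10, edgeR adjusted p = 0.000356). STUB1, the ubiquitin ligase CHIP, had 97.0 and 105 CPM in T4A, against 81.4 and 77.1 CPM in WT (0.35 ± 0.07, edgeR adjusted p = 0.000533). HSPBP1 (0.43 ± 0.09) and HSF1 (0.22 ± 0.05) were the remaining 2 higher genes, and HSPBP1 lost its call without WT replicate 2 (0.32, edgeR adjusted p = 0.0522). In each of these 6 genes both T4A libraries were above both WT libraries, but they were picked by their calls, so this adds no support. Of the 29 tested partners 72.4% did not overlap between the groups, against 59.0% of all genes tested and 63.3% of protein-coding genes.

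Of the 4 lower partners, BAG5 had 20.4 and 24.0 CPM in T4A, against 29.6 and 31.5 CPM in WT (−0.46 ± 0.11, edgeR adjusted p = 0.00281). GRPEL2, an exchange factor of mitochondria, had 25.3 and 30.3 CPM in T4A, against 32.9 and 35.4 CPM in WT (−0.30 ± 0.10, edgeR adjusted p = 0.0415). Its value was −0.17 without T4A replicate 1 (adjusted p = 0.341), and the call was also lost without WT replicate 1 (adjusted p = 0.0605) and without WT replicate 2 (adjusted p = 0.254). HYOU1, the large Hsp70-like protein of the ER, had 307 and 323 CPM in T4A, against 356 and 358 CPM in WT (−0.18 ± 0.04, edgeR adjusted p = 0.0031). HSPA4, its cytosolic counterpart, had 157 and 159.8 CPM in T4A, against 178 and 177 CPM in WT (−0.16 ± 0.05, edgeR adjusted p = 0.0211), and was called without T4A replicate 2 but with none of the other 3 libraries left out. The organelle Hsp70s HSPA5 or BiP (0.12 ± 0.06) and HSPA9 of mitochondria (−0.08 ± 0.04) and the Hsp90 genes HSP90AA1 (−0.05 ± 0.03) and HSP90AB1 (−0.03 ± 0.03) were not called. HSPA1A and HSPA1L had 0 counts in all 4 libraries and HSPA1B 1 and 0 in T4A and 0 and 9 in WT, so the major heat-inducible Hsp70, whose 2 genes are near-identical copies, could not be read. There were 0.208 and 0.195 counts of DNAJB1 per count of HSPA8 in T4A, against 0.139 and 0.163 in WT. J-domain genes under other symbols moved in both directions, among them SEC63 of the ER translocon at −0.20 ± 0.05 (edgeR adjusted p = 0.00856) and HSCB, a mitochondrial iron-sulfur co-chaperone, at 0.36 ± 0.11 (edgeR adjusted p = 0.0288). GAK, a homologue of auxilin, was not called (−0.06 ± 0.07).

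**Figure D4:**
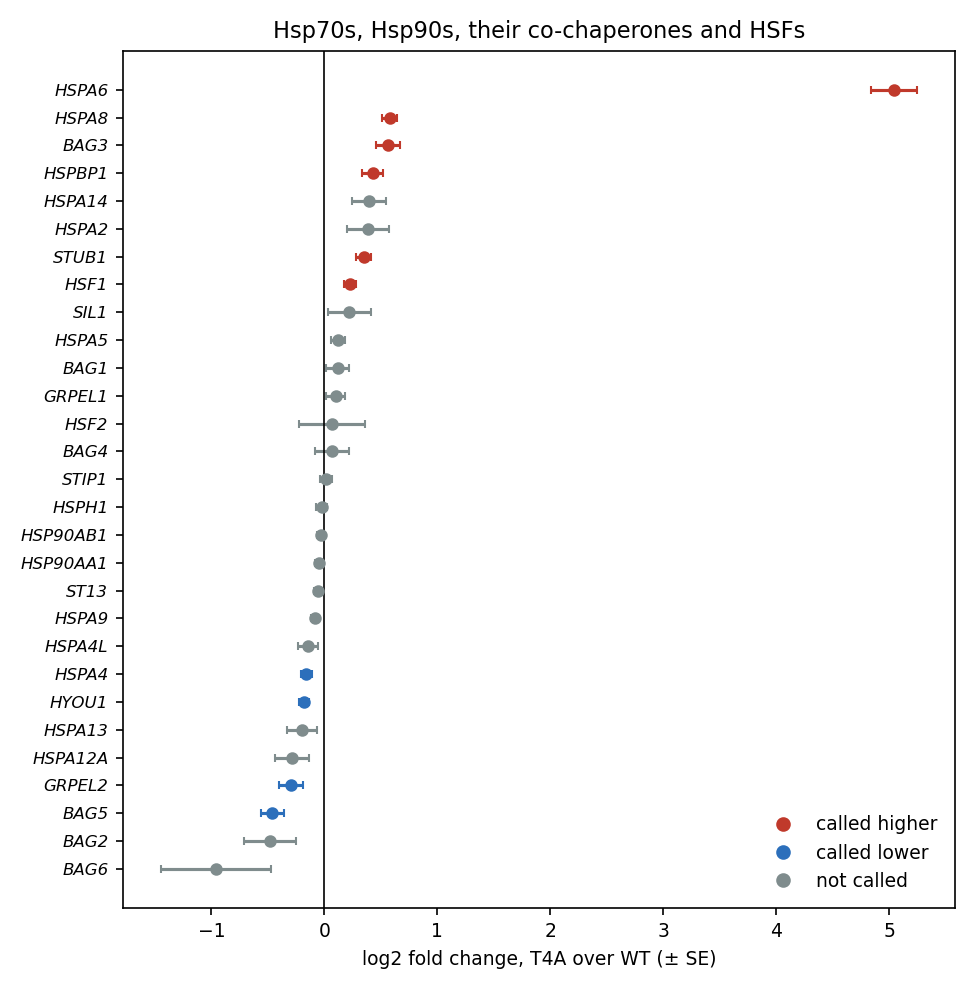
Log2 fold change (T4A over WT, with bars for ± SE) of the 29 tested partner genes, in red where called higher, blue where called lower and grey otherwise. HSPA6 stands apart at 5.04, and the other 5 higher genes lie between 0.22 and 0.58.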

How the data were processed

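The authors deposited raw counts of fragments per gene, 1 table per library with 62700 Ensembl gene identifiers and no normalization or pooling. Per the submitters' processing notes and the study's methods, reads were trimmed with Trimmomatic 0.38, aligned to hg38 with HISAT2 2.2.1 without strand and counted with featureCounts 2.0.1. The treatment of fragments with several possible places is not given in the sources read, so paralogs, pseudogene parents and genes that overlap others carry uncertain counts. Processed pseudogenes named after members held at most 1.92% of their parents' counts. Symbols, biotypes, exonic length and overlaps came from GENCODE 44 (60877 identifiers found), and coordinates and promoters from RefSeq on GRCh38.p14 (45 of 45 members matched by symbol). Protein sequences were not used here.

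With the deposited counts, filterByExpr left 18139 genes, and T4A was compared with WT, 2 libraries each, in edgeR 4.0.16 (R 4.3.3) by the quasi-likelihood test (glmQLFTest after glmQLFit, TMM). P-values were adjusted by Benjamini-Hochberg over these genes, and an adjusted p under 0.05 made a call. The script was tested on simulated data. SE was obtained from the log2 fold change and the square root of F. CPM are counts per 1000000 of TMM-scaled totals, so a rise in the share of some genes lowers that of others. Library totals lay between 19257217 and 33063535. The common biological coefficient of variation was 0.114. The study calls the duplicates biological replicates, and the labels do not name separate cultures, so the p-values measure only the spread among these libraries. Within-group pairs differed beyond sampling noise (chi-square per degree of freedom 4.56 in T4A and 5.66 in WT). The members and lists were chosen with earlier results of these data known. Values per library are given for heat- and UPR-inducible members, called members, those of highest level per length and those of the ribosome, RNA and histone list, and for the 4 partners of smallest adjusted p in each direction. Values of DNAJB5, DNAJB6 and DNAJC7, the untested members and the neighbours of DNAJA3 were chosen after seeing them. The gene pairs of the count ratios were not planned. Where a pair holds a called gene, its ratio rests on the same counts as that call and adds no separate support. Alternatives were 3 normalizations, 2 filters, DESeq2 1.42.0, limma-voom (limma 3.58.1), a coefficient of variation fixed at 0.2, a replicate block, removal of the length trend, both together, and each library left out.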

Additional observations from a re-analysis of the deposited data

How the results depend on the processing

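DNAJB1 was called higher under all 15 alternatives, with log2 fold changes from 0.83 to 1.18. No called member changed sign under an alternative except DNAJA3, which lay between −0.20 (without T4A replicate 1) and 3.97 with 1 library left out. The number of higher members was 5, and it was 8 under upper quartile scaling, 2 with the coefficient of variation fixed at 0.2 and 3 to 6 with 1 library left out (3 without T4A replicate 1 and 3 without WT replicate 2). The number of lower members was 6, 0 with the fixed coefficient and 4 to 6 with 1 library left out. Of the partners, 6 were higher, against 1 with the fixed coefficient, and 4 were lower, against 1 under upper quartile scaling, 8 under library totals and 0 with the fixed coefficient. With that coefficient, 239 of all genes tested were higher and 306 lower, where 1935 and 2351 were called otherwise, and POLR2A (0.73) lost its call (adjusted p = 0.157). Of 30 uncalled members, 15 changed sign under an alternative and 9 were called under 1 or more. DNAJA3, left out in an alternative chosen after seeing the data, lowers the higher count to 4.

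Same-numbered libraries did not deviate together (correlation 0.002 over 14648 genes), so no pairing by number was seen. Whether libraries of the same number were prepared together is not given by the labels and cannot be read from this correlation. With the replicate block 5 members were higher and 6 lower, and with block and length trend removal 7 were higher and 6 lower. With 2 libraries per group, log2 fold changes of members near 1 CPM have an SE of about 0.4 or more (0.42 for DNAJA4, 0.45 for DNAJB7), which is close to the size of most called changes, so changes of that size were not detectable at this depth in these genes.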

Other observations

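Pseudogenes of the family held few counts. The 8 processed pseudogenes of DNAJB6 held 53 and 55 counts in T4A, against 125 and 81 in WT, or 1.86% of the counts of DNAJB6, and the 4 of DNAJC8 held 33 and 41 counts in T4A, against 54 and 41 in WT, or 0.652% of those of DNAJC8. Spearman rho of the log2 fold change with GC content was 0.31 over 41 members and 0.26 over 18047 genes, as descriptions across genes of the same libraries.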
